A study of Mus musculus with 10 samples.

Results

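The 52 genes described here encode proteins that run mitosis itself: the mitotic kinases, the spindle checkpoint, the kinetochore and centromere, the spindle motors, the condensin complex and the cytokinesis apparatus. They were taken from a list of names grouped by known function, chosen with earlier results of these data known. All 52 had at least 1 probe among the 36315 gene names on the array. Of these, 50 were measured, out of 18056 genes measured on the array. A gene counted as measured where its probe was well above background on both arrays of at least 1 group. The 2 others, Cenpf and Ncapg, are described at the end of the role groups.

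RNA came from RAW264.7, a mouse macrophage-like tumour line that proliferates in culture, and was hybridised to one-colour Agilent arrays, 10 in all and 2 in each of 5 groups. The groups were Dex (dexamethasone), FF (fluticasone furoate), VSG22, VSGC12 and EtoH, the control. Per the labels, glucocorticoids were given at 100 nM for 1 h before LPS, a bacterial endotoxin, at 1 µg/ml for 16 h. For the EtoH arrays the labels name only EtoH and do not say whether LPS was given, so glucocorticoid, LPS and their combination cannot be told apart in any comparison with EtoH. The labels do not say whether the 2 arrays of a group came from separate cultures, so the p-values measure only the spread between these arrays.

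Mitosis is ordered by kinases such as PLK1 and Aurora A, which build the spindle, and by the spindle checkpoint, which holds the anaphase-promoting complex in check until every kinetochore is attached. CDC20 then activates that complex, securin and cyclin B are destroyed, separase cuts cohesin, and the central spindle directs the cell to divide. Transcripts of many of these genes are made mainly in late cell cycle, so their amount in a culture is known to follow how much of it is cycling. In bulk RNA, more cells in mitosis and more of these transcripts per cell cannot be told apart.

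Values are log2 signals relative to each array's 75th percentile, so 0 is a probe at that percentile, and a gene's changes are differences between groups on that scale. A gene was called where limma's adjusted p was under 0.05 over all genes tested. For the mean of the 4 glucocorticoids against EtoH, all 50 measured genes were higher, with adjusted p from 4.1e-06 to 0.013, where 21.6% of all 18031 genes tested were called higher and 22.5% lower. Their log2 changes had a median of 1.92 and ran from 0.3 for Tpx2 to 4.96 for Pbk, and the median over all genes tested was -0.004. Of the 50, 45 were at least 2-fold higher, against 4.68% of all genes. All 8 glucocorticoid arrays lay above both EtoH arrays for 49 of the 50, compared with 22.9% of genes with a value on every array. The exception was Tpx2. Of the 50, 8 were well above background in no EtoH array and 5 in 1, so they were measured through the glucocorticoid groups, where they are high. Over the 37 well above background on every array, 37 were called higher, 32 were at least 2-fold higher and the median was 1.74.

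The same held array by array. The median over the 50 genes, relative to each gene's EtoH mean, was 1.69 and 1.68 on the Dex arrays, 1.99 and 1.95 on the FF arrays, 2.19 and 2.11 on the VSG22 arrays and 1.99 and 1.91 on the VSGC12 arrays, with 0.01 and -0.01 on the EtoH arrays. Each slide carried 1 array of every group, and the median change within a slide was 1.92 on both, with 50 of 50 genes higher on each. Leaving out both Dex arrays, where spatial patches were most common, gave 50 called genes and a median of 2.01. A patch is a place where at least 3 of the 24 neighbouring spots were well above background on that array and on no array of another group. Leaving out probes lying in a patch on any array gave 45 called of 45 measured and a median of 1.91. All 50 genes were well above background on all 8 glucocorticoid arrays. For the 8 that were so on neither EtoH array, the change is given below as a bound, worded as at least. It sets each EtoH signal no lower than the lowest probe signal well above background on that array. Some probes read above that floor without clearing background, so the bound is nominal and the change could be smaller. With those bounds in place of the fitted values the median was 1.89. The bounds apply to the processed signals used here. With the alternative normexp background correction, which adds a fixed offset to every signal, all 50 were again called higher, 40 of them at least 2-fold, but 18 changes moved by over 1.5 times, each to a smaller value. Among these were the 8, whose normexp changes ran from 0.9 to 1.88 and lay under the bound for 8 of 8.

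**Figure D1:**
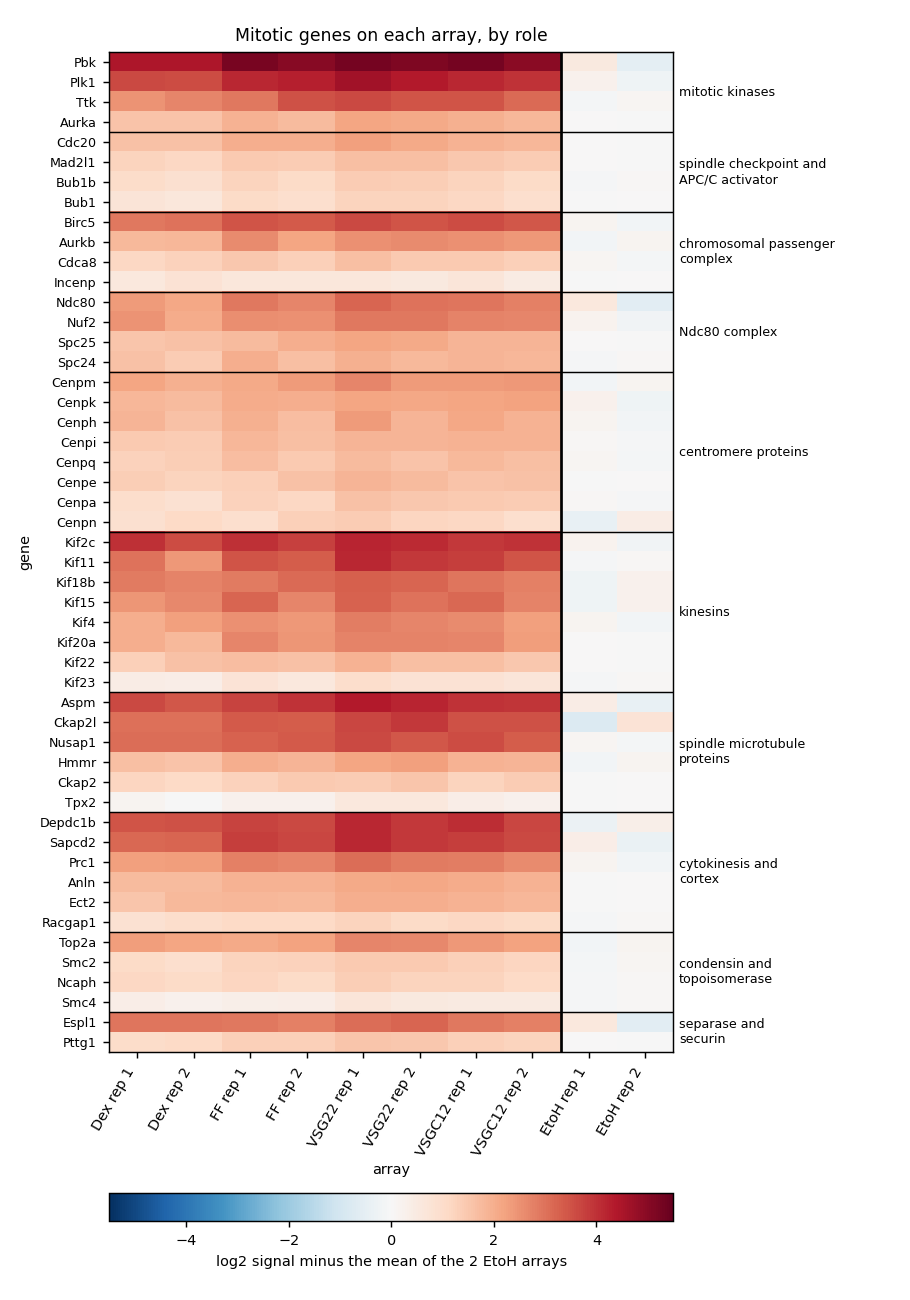
Log2 signal of each of the 50 measured genes (rows, grouped by role) on each of the 10 arrays (columns), as the difference from the mean of the 2 EtoH arrays. The medians over the genes were 1.69 and 1.68 on the Dex arrays, 1.99 and 1.95 on FF, 2.19 and 2.11 on VSG22, 1.99 and 1.91 on VSGC12, and 0.01 and -0.01 on EtoH.

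Promoter sequence was available for 44 of the 52 genes, giving 48 promoters from RefSeq (GRCm38.p6). Kif20a, Smc4, Depdc1b, Pbk, Tpx2, Aurkb, Incenp and Spc24 were not in the table used. A pair of short motifs known from late cell cycle promoters was searched on both strands in the 250 bases before the start: the CHR element TTTGAA, which MuvB complexes bind, and the CCAAT box, which NF-Y binds. TTTGAA or its complement occurred in 15 of the 48 promoters, 31.2%, against 16.0% of all promoters and 11.2% of promoters of measured genes. CCAAT occurred in 72.9%, against 33.8% of all and 35.5% of those of measured genes. Both occurred together in 27.1%, against 5.5% of all promoters and 4.3% of those of measured genes. AGAACA, the core hexamer that the glucocorticoid receptor recognises, was in 10.4%, against 16.1% of all promoters and 11.1% of those of measured genes. A match shows only that these letters are in the window. The last 150 bases before the start are shown for 3 genes holding both motifs, picked by the fitted change although 2 of them are given below only as bounds (Kif11, Ckap2l and Espl1), and for 2 strongly changed genes with CCAAT and no TTTGAA (Plk1 and Aspm), with every CHR and CCAAT match in capitals on the gene's strand, where TTCAAA and ATTGG are the complements. The regions are chr19:37376232-37376381, plus strand, for Kif11, chr2:129297213-129297362, minus strand, for Ckap2l, chr15:102296143-102296292, plus strand, for Espl1, chr7:122159285-122159434, plus strand, for Plk1, and chr1:139454623-139454772, plus strand, for Aspm.
Kif11: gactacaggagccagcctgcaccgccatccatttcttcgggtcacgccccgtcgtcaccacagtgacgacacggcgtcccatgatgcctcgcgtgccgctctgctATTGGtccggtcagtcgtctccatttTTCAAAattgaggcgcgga
Ckap2l: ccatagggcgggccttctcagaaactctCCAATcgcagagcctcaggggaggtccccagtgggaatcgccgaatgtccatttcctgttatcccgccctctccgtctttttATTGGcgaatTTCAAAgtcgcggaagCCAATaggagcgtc
Espl1: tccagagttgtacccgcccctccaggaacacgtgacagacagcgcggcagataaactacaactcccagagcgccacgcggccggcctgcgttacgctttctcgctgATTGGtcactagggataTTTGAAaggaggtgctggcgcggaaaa
Plk1: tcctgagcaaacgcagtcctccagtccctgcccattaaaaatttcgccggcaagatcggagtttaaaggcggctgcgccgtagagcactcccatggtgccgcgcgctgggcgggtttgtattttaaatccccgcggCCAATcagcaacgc
Aspm: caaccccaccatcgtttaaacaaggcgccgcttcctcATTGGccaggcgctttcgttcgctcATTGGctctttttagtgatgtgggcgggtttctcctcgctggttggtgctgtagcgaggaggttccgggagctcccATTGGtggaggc
In Kif11, Ckap2l and Espl1 the CHR match began at -19, -30 and -27, counting the base before the start as -1. Over the promoters searched, 10 of 18 CHR matches lay in the last 100 of the 250 bases. These counts include overlapping promoters of Ect2 and the unmeasured Ncapg. The same share over all promoters was not taken. The other mitosis genes counted below, whose median change was 0.29, held TTTGAA in 21.1% and CCAAT in 43.1% of their promoters. Some strongly changed genes held neither motif, such as Sapcd2 (3.66), Birc5 (3.35) and Nusap1 (3.35). Cenpn (1.11) and Smc2 (1.23), which changed less, held both. Whether the motifs go with the size of the change was not tested.

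The 4 mitotic kinases had the highest median change of the role groups, 3.62 (2.97 with Ttk at its bound). Pbk, a kinase that is active in mitotic cells (probe on chromosome 14, 66436224 to 66436283, mm9), read 1.2 and 1.23 in Dex, 1.98 and 1.77 in FF, 2.03 and 1.91 in VSG22, 2.03 and 1.73 in VSGC12, and -2.69 and -3.77 in EtoH. Only 1 EtoH array was well above background for it, and the gap between the groups was several times the spread within any of them. The log2 change was 4.96 ± 0.25 (SE), 31.2-fold, with limma's adjusted p 2.5e-05, and 3.36, or 10.3-fold, with normexp. Its probe lay in a spatial patch on both Dex arrays. Plk1, the polo-like kinase that drives mitotic entry, centrosome maturation and cytokinesis (chromosome 7, 129313220 to 129313279, mm9), read 3.24 and 3.22 in Dex, 3.75 and 3.88 in FF, 4.23 and 3.99 in VSG22, 3.77 and 3.62 in VSGC12, and -0.13 and -0.62 in EtoH. It was above background on every array, and its change was 4.09 ± 0.13, or 17-fold, with an adjusted p of 5.8e-06. Aurka, the Aurora kinase of centrosomes and spindle poles (chromosome 2, 172181726 to 172181785, mm9), read 3.41 and 3.38 in Dex, 3.74 and 3.57 in FF, 3.98 and 3.89 in VSG22, 3.77 and 3.64 in VSGC12, and 1.85 and 1.8 in EtoH. That is a rise of 1.85 ± 0.07, or 3.6-fold, the smallest of the group by fitted change. Ttk, the checkpoint kinase MPS1, averaged -2.36 over the glucocorticoid arrays and -5.51 in EtoH, where it was not well above background, so it was at least 2.29-fold higher (adjusted p 3.6e-05; 1.87-fold with normexp).

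The spindle checkpoint group and the activator it restrains had a median change of 1.29. Cdc20, which activates the anaphase-promoting complex (chromosome 4, 118105534 to 118105593, mm9), read 3.36 and 3.4 in Dex, 3.77 and 3.76 in FF, 4.04 and 3.86 in VSG22, 3.68 and 3.59 in VSGC12, and 1.8 and 1.74 in EtoH. No glucocorticoid array overlapped with EtoH, and the change was 1.91 ± 0.07 (adjusted p 7.9e-06). Mad2l1, the MAD2 protein that sequesters CDC20, read 2.49 and 2.41 in Dex, 2.72 and 2.66 in FF, 2.92 and 2.95 in VSG22, 2.76 and 2.68 in VSGC12, and 1.32 and 1.24 in EtoH, a rise of 1.42 ± 0.06. Bub1, a kinase that recruits other checkpoint proteins to the kinetochore, read 1.77 and 1.66 in Dex, 2.11 and 1.97 in FF, 2.29 and 2.25 in VSG22, 2.18 and 1.97 in VSGC12, and 1.02 and 1.07 in EtoH. It rose by 0.98 ± 0.08, and its probe lay in a patch on 1 Dex and 1 FF array. The fourth member, Bub1b (BUBR1), rose by 1.15 ± 0.08.

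The chromosomal passenger complex, which corrects wrong attachments and then moves to the midzone, was split. Birc5, its survivin subunit (chromosome 11, 117716978 to 117717037, mm9), read 4.6 and 4.65 in Dex, 5.15 and 5.05 in FF, 5.31 and 5.15 in VSG22, 5.25 and 5.09 in VSGC12, and 1.85 and 1.51 in EtoH. Its change was 3.35 ± 0.10, 10.2-fold, with an adjusted p of 4.9e-06. Aurkb, the kinase of the complex, read -0.98 and -0.92 in Dex, -0.17 and -0.58 in FF, -0.26 and -0.18 in VSG22, -0.24 and -0.38 in VSGC12, and -2.9 and -2.62 in EtoH, a rise of 2.29 ± 0.12 (1.31 with normexp). Incenp, the scaffold that holds the complex together, moved least: it read 6.17 and 6.35 in Dex, 6.2 and 6.18 in FF, 6.2 and 6.11 in VSG22, 6.23 and 6.02 in VSGC12, and 5.56 and 5.58 in EtoH. The groups still did not overlap, and the rise was 0.61 ± 0.08 (1.53-fold, adjusted p 0.0012). Cdca8 (borealin) rose by 1.38 ± 0.09. The difference in change between these subunits was not tested.

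All 4 subunits of the NDC80 complex, the rod that couples the kinetochore to microtubules, rose, with a median of 2.23. Ndc80 (HEC1) read -0.41 and -0.62 in Dex, 0.16 and -0.08 in FF, 0.45 and 0.23 in VSG22, 0.18 and 0 in VSGC12, and -2.17 and -3.33 in EtoH, with 1 EtoH array well above background and a change of 2.74 ± 0.27 (adjusted p 0.00039; 1.67 with normexp). Its partner Nuf2 (chromosome 1, 171428989 to 171429048, mm9) read -0.49 and -0.9 in Dex, -0.39 and -0.44 in FF, -0.06 and -0.04 in VSG22, -0.25 and -0.28 in VSGC12, and -2.78 and -3.14 in EtoH, a rise of 2.61 ± 0.13 (1.52 with normexp). The inner pair changed less than these by point estimate with the processed signals, but not with normexp. Over all alternatives, normexp included, Spc24 changed by 1.6 or more and Spc25 by 1.78 or more. With normexp Spc25 was thus above both Ndc80 and Nuf2, and Spc24 above Nuf2. Spc24 read 1.28 and 1.1 in Dex, 1.67 and 1.36 in FF, 1.62 and 1.45 in VSG22, 1.57 and 1.5 in VSGC12, and -0.39 and -0.24 in EtoH, and rose by 1.76 ± 0.10. Spc25 rose by 1.86 ± 0.08.

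Of the 9 centromere genes, 8 were measured and all 8 rose, with a median of 1.65. Cenpm, a subunit of the constitutive centromere network, read -1.63 and -1.84 in Dex, -1.73 and -1.48 in FF, -1.13 and -1.48 in VSG22, -1.46 and -1.42 in VSGC12, and -3.98 and -3.65 in EtoH. Neither EtoH array was well above background, so it was at least 4.09-fold higher (adjusted p 4.4e-05; 1.93-fold with normexp). Cenpk, another subunit of that network, read 1.4 and 1.32 in Dex, 1.6 and 1.56 in FF, 1.76 and 1.72 in VSG22, 1.76 and 1.79 in VSGC12, and -0.17 and -0.68 in EtoH, a rise of 2.04 ± 0.12. Cenpn, which reads the CENP-A nucleosome, showed the smallest change of the group: -1.54 and -1.33 in Dex, -1.5 and -1.14 in FF, -1.06 and -1.24 in VSG22, -1.29 and -1.49 in VSGC12, and -2.85 and -2.02 in EtoH. The EtoH arrays were far apart for this gene, and the rise was 1.11 ± 0.21 (adjusted p 0.0061). Cenpa, the centromeric histone, rose by 1.27 ± 0.08 and Cenpe, the kinetochore motor, by 1.53 ± 0.08. Cenph, Cenpi and Cenpq rose by 1.92, 1.74 and 1.56.

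The 8 kinesins had a median change of 2.66, or 2.19 with bounds, because 4 of them failed to clear background in EtoH. Kif2c (MCAK), which depolymerises microtubules at centromeres, read -1.32 and -1.75 in Dex, -1.32 and -1.6 in FF, -1.17 and -1.22 in VSG22, -1.44 and -1.38 in VSGC12, and -5.16 and -5.52 in EtoH, at least 4.45-fold higher (adjusted p 8.3e-06; 2.58-fold with normexp). Kif11 (Eg5), the motor that pushes spindle poles apart and whose promoter is shown above (probe on chromosome 19, 37495755 to 37495814, mm9), read -2.55 and -3.15 in Dex, -2.08 and -2.19 in FF, -1.38 and -1.66 in VSG22, -1.72 and -2.08 in VSGC12, and -5.59 and -5.48 in EtoH. It was at least 2.73-fold higher (adjusted p 2.4e-05; 1.91-fold with normexp), with the Dex arrays lowest among those treated. Probes of both lay in patches, Kif2c on both Dex arrays and Kif11 on 1. Kif15, which backs up KIF11, and Kif18b, which shortens astral microtubules, were at least 4.71-fold and 5.2-fold higher (2.25-fold and 2.36-fold with normexp). Kif4, Kif20a and Kif22, a chromokinesin, a midzone kinesin and another chromokinesin, rose by 2.44 ± 0.13, 2.41 ± 0.13 and 1.62 ± 0.11, Kif4 by 1.26 with normexp. Kif23 (MKLP1), the central spindle motor, rose least: 0.74 and 0.7 in Dex, 1.08 and 0.93 in FF, 1.3 and 1.12 in VSG22, 1.14 and 0.99 in VSGC12, and 0.26 and 0.42 in EtoH, a change of 0.66 ± 0.09 (adjusted p 0.0012).

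Among the 6 spindle microtubule proteins the fitted changes ran from 0.3 for Tpx2, on the probe that stands for it, to 3.9 for Aspm. Aspm, which focuses spindle poles and whose promoter is shown above (probe on chromosome 1, 141390377 to 141390436, mm9), read -0.14 and -0.35 in Dex, -0.05 and 0.23 in FF, 0.6 and 0.43 in VSG22, 0.22 and 0.17 in VSGC12, and -3.37 and -4.15 in EtoH. Its change was 3.9 ± 0.19, 14.9-fold (adjusted p 2.3e-05), with 1 EtoH array well above background, and 2.22, or 4.65-fold, with normexp. Ckap2l (radmis), a spindle-pole protein, read -1.79 and -1.81 in Dex, -1.45 and -1.52 in FF, -1.15 and -0.93 in VSG22, -1.31 and -1.34 in VSGC12, and -5.57 and -4.09 in EtoH, at least 4.41-fold higher (adjusted p 0.00033; 2.4-fold with normexp). Its EtoH arrays differed widely, and its fitted log2 change was 2.68 without EtoH replicate 1 and 4.16 without EtoH replicate 2, against 3.42 with both. Nusap1 and Hmmr, which bundle and anchor spindle microtubules, rose by 3.35 ± 0.09 (2.31 with normexp) and 1.92 ± 0.09, and Ckap2 by 1.31 ± 0.08. Tpx2, which activates Aurora A on the spindle (chromosome 2, 152719476 to 152719535, mm9), had the smallest change of the 50 on the probe that stands for it: it read 1.64 and 1.49 in Dex, 1.76 and 1.74 in FF, 2.08 and 2.07 in VSG22, 1.88 and 1.73 in VSGC12, and 1.47 and 1.54 in EtoH. One Dex array lay below an EtoH array. The change was 0.3 ± 0.07 (adjusted p 0.013), and it lost its call when either EtoH array was left out, at 0.26 (adjusted p 0.11) without replicate 1 and 0.33 (0.06) without replicate 2. With its probes averaged it was 1.04, above Smc4, Incenp and Kif23.

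All 6 cytokinesis and cortex genes rose, with a median of 2.3. Depdc1b, a RhoA-pathway protein, read -0.6 and -0.54 in Dex, -0.31 and -0.39 in FF, 0.12 and -0.13 in VSG22, 0.04 and -0.37 in VSGC12, and -4.36 and -3.72 in EtoH, where it was not well above background. It was at least 9.71-fold higher (adjusted p 2.1e-05; 3.68-fold with normexp). Sapcd2, which acts at the cell cortex in spindle orientation, read 1.15 and 1.19 in Dex, 1.81 and 1.68 in FF, 2.16 and 1.87 in VSG22, 1.8 and 1.61 in VSGC12, and -1.63 and -2.37 in EtoH, a rise of 3.66 ± 0.18 (adjusted p 2.4e-05; 2.9 with normexp). Prc1, Anln and Ect2, which bundle midzone microtubules, scaffold the contractile ring and activate RhoA, rose by 2.67 ± 0.11 (1.96 with normexp), 1.93 ± 0.06 and 1.83 ± 0.08. Racgap1, the partner of KIF23 in centralspindlin, rose least of the group, at 3.17 and 3.29 in Dex, 3.43 and 3.41 in FF, 3.54 and 3.39 in VSG22, 3.49 and 3.4 in VSGC12, and 2.29 and 2.38 in EtoH. The change was 1.05 ± 0.07 (adjusted p 7.4e-05).

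The condensin and topoisomerase genes had a median change of 1.2 over the 4 measured. Top2a, which removes tangles between sister chromatids, read 1.2 and 1.09 in Dex, 1.02 and 1.11 in FF, 1.6 and 1.55 in VSG22, 1.29 and 1.12 in VSGC12, and -1.22 and -0.95 in EtoH, a rise of 2.33 ± 0.09. Smc2 and Smc4 are the core condensin ATPases. Smc2 read 3.03 and 2.93 in Dex, 3.2 and 3.26 in FF, 3.42 and 3.44 in VSG22, 3.28 and 3.18 in VSGC12, and 1.9 and 2.08 in EtoH, and rose by 1.23 ± 0.07. Smc4 read 4.2 and 4.09 in Dex, 4.16 and 4.19 in FF, 4.49 and 4.37 in VSG22, 4.35 and 4.35 in VSGC12, and 3.77 and 3.9 in EtoH, and rose by 0.44 ± 0.07 (adjusted p 0.0023). Ncaph, the kleisin that closes the condensin I ring, rose by 1.16 ± 0.08.

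The proteins that trigger sister separation both rose. Espl1, separase itself (chromosome 15, 102153644 to 102153882, mm9), read -0.39 and -0.38 in Dex, -0.41 and -0.56 in FF, -0.24 and -0.14 in VSG22, -0.43 and -0.54 in VSGC12, and -2.76 and -3.89 in EtoH. The glucocorticoid arrays lay within a narrow band, and the change was 2.94 ± 0.25 (adjusted p 0.00021; 1.65 with normexp) with 1 EtoH array well above background. Pttg1, securin, which holds separase inactive, read 4.57 and 4.67 in Dex, 4.87 and 4.87 in FF, 5.1 and 5.07 in VSG22, 4.87 and 4.8 in VSGC12, and 3.61 and 3.53 in EtoH, a rise of 1.28 ± 0.06 (adjusted p 1.9e-05).

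The 2 genes not measured were Cenpf, a large kinetochore protein, and Ncapg, a condensin I subunit. The Cenpf probe (chromosome 1, 191464978 to 191465037, mm9) was well above background on no array, so no change is given. The Ncapg probe (chromosome 5, 46091679 to 46091738, mm9) was well above background on 1 of the 8 glucocorticoid arrays and on neither EtoH array.

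**Figure D2:**
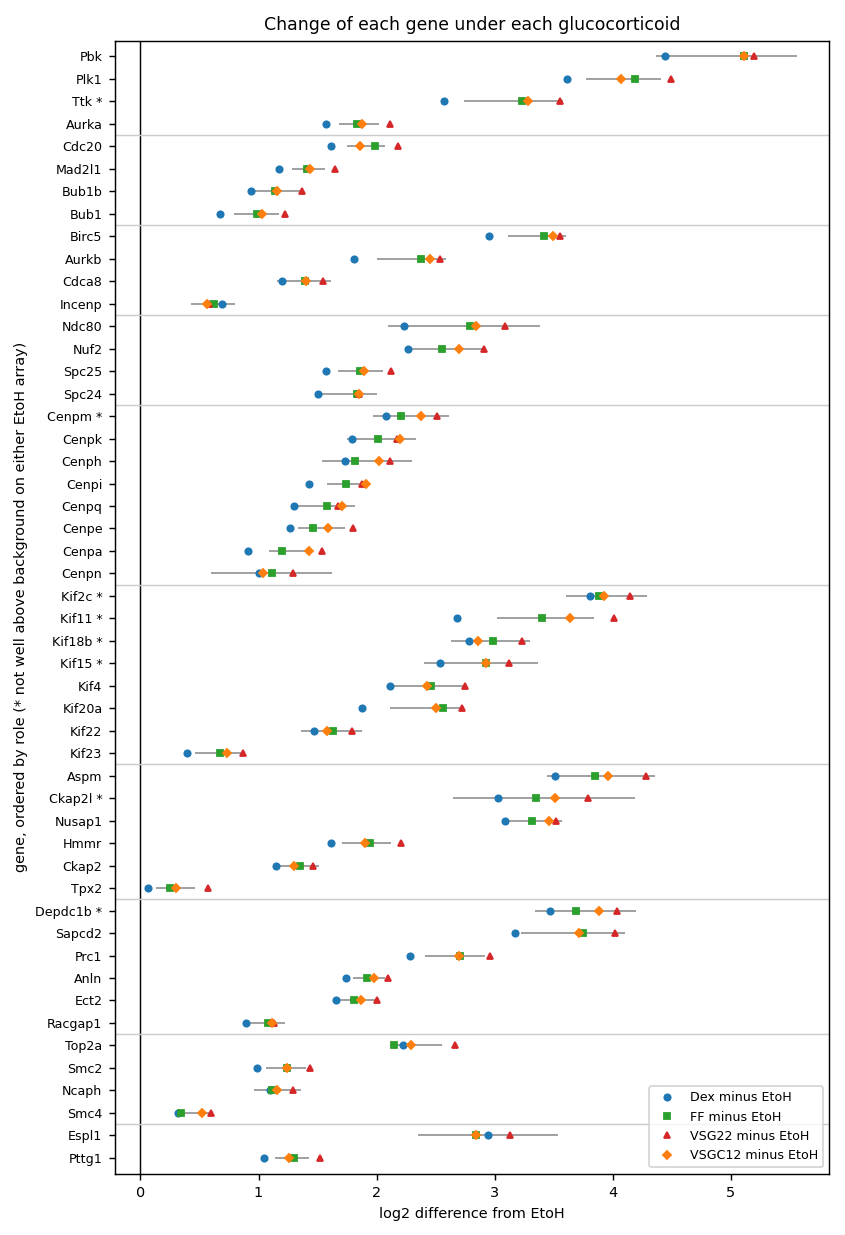
Log2 difference from EtoH of each of the 50 measured genes under each glucocorticoid (symbols), ordered by role and by size; the grey bar is the 95% interval of the mean of the 4 glucocorticoids and an asterisk marks the 8 genes that cleared background on neither EtoH array. Pbk is highest at 4.96 and Tpx2 lowest at 0.3 on the probe used, and the Dex symbol lies lowest of the 4 for 47 of the 50 genes.

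Each glucocorticoid was then set against the same 2 EtoH arrays, so the 4 comparisons share their controls. Under Dex 49 of the 50 genes were higher (16.5% of all genes tested were called higher), with a median of 1.70, and Tpx2 was the exception at 0.06 ± 0.09 (adjusted p 0.61). Under FF 49 were higher (background 17.9%), with a median of 1.93, and Tpx2 was again not called, at 0.25 ± 0.09 (adjusted p 0.065). Under VSG22 50 were higher (background 16.1%), with a median of 2.14, and under VSGC12 50 (background 17.2%), with a median of 1.94. At least 2-fold higher were 40 genes under Dex, 45 under FF, 46 under VSG22 and 46 under VSGC12. The shares of all genes at least 2-fold higher were 4.55%, 5.11%, 4.09% and 4.43%. For Plk1 the changes were 3.61 ± 0.17 for Dex, 4.19 ± 0.17 for FF, 4.49 ± 0.17 for VSG22 and 4.07 ± 0.17 for VSGC12.

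The glucocorticoids, all at the same dose and time, were compared in 6 pairs, and no measured gene passed the threshold in any pair in the fit without a slide block, either over all genes or after further adjustment over the 6 pairs. For VSG22 against Dex, where 0.554% of all genes were called, 0 of 50 were called, but 40 had an unadjusted p under 0.05, against 16.7% of all genes, and the smallest adjusted p was 0.055. VSG22 was higher than Dex for 49 of the 50, with a median difference of 0.48 and a median 95% interval from 0.18 to 0.79. Both VSG22 arrays lay above both Dex arrays for 49 of the 50 genes, compared with 27.9% of all genes. On slide 1 the median was 0.52 with 50 of 50 positive, and on slide 2 it was 0.47 with 49 positive. The largest difference belonged to Kif11, at 1.33 ± 0.22 (interval 0.81 to 1.85, limma's adjusted p 0.065), whose probe lay in a patch on 1 Dex array. Cdc20 differed by 0.57 ± 0.09 (interval 0.37 to 0.78, adjusted p 0.055) and Cenpa by 0.63 ± 0.10 (adjusted p 0.056). With normexp Kif11 differed by 0.71.

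The number of genes called for VSG22 against Dex depended on the setting. With all arrays kept it was 3 with slide as a block (Aurka, Cenpa and Kif11), 7 with normexp, 5 with quantile normalization, 2 with the percentile over detected probes and 1 with flagged spots kept. The numbers of all genes called for this pair in those settings are not given here, so these counts have no background beside them. Without Dex replicate 1, 9 genes were called higher under VSG22: Aurka, Bub1, Mad2l1, Cdc20, Nuf2, Cenpa, Kif11, Kif20a and Tpx2. Without Dex replicate 2 none was, while 33 and 31 genes had an unadjusted p under 0.05 in these fits, and the medians were 0.52 and 0.46. Leaving out a Dex array leaves 1 in that group, which is then assumed to vary like the other groups. Over all genes, 1214 were called without Dex replicate 1 and 225 without replicate 2. The Dex arrays differed from each other more than other replicates did, with a standard deviation of 0.631 over all genes against 0.327 to 0.409 in the other groups, and had 771 and 1103 genes with a probe in a patch, against 82 to 355 on the others. The part of these features in the difference was not tested. Each of Aurka, Cdc20, Cenpa and Mad2l1 was called in at least 3 of the alternative settings.

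The remaining pairs had smaller medians. FF against Dex had 0 genes called (background 0.371%), 47 of 50 positive and a median of 0.25 (median interval -0.03 to 0.56). Both FF arrays lay above both Dex arrays for 38 genes, with a background of 19.4%. VSGC12 against Dex had 0 called (background 0.393%), 48 positive and a median of 0.31 (median interval 0.03 to 0.65), and both VSGC12 arrays lay above both Dex arrays for 42 genes (background 22.5%). VSG22 against FF had 0 called (0 of all genes), 49 positive and a median of 0.24 (median interval -0.11 to 0.53). For this pair 12 genes had an unadjusted p under 0.05, against 9.47% of all genes. Both VSG22 arrays lay above both FF arrays for 37 genes, with a background of 28.9%. VSGC12 against FF had 0 called (background 0.00555%) and a median of 0.05 (median interval -0.27 to 0.36). No gene had an unadjusted p under 0.05 there, against 4.21% of all genes. VSGC12 against VSG22 had 0 called (0 of all genes), 46 of 50 negative and a median of -0.21 (median interval -0.48 to 0.14). Here 8 genes had an unadjusted p under 0.05, against 7.15% of all genes. Both VSGC12 arrays lay below both VSG22 arrays for 32 genes (background 24.6%). For Plk1 this last difference was -0.42, with an interval from -0.82 to -0.01 and an adjusted p of 0.68. These intervals, not adjusted for the number of pairs, leave room for differences of either sign for the typical gene in every pair but VSG22 and VSGC12 against Dex.

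In the order of the 4 means, VSG22 was highest for 45 of the 50 genes (31.6% of all genes) and Dex lowest for 47 (31.2%), and both held for 43 (13.7%). The genes were read on the same 8 arrays, so these counts are not independent of each other. Incenp was the 1 gene with Dex highest (29.8% of all genes). An F-test over the 4 glucocorticoids called 0 of the 50 (0.255% of all genes), with a smallest adjusted p of 0.18. Its unadjusted p was under 0.05 for 28 of the 50, and the same share over all genes is not given here.

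**Figure D3:**
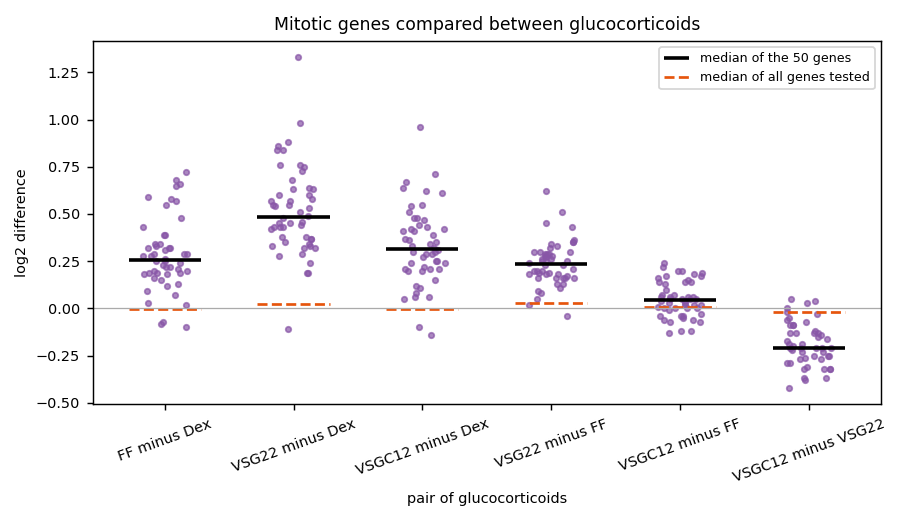
Log2 difference between glucocorticoids for each of the 50 measured genes (points) in each of the 6 pairs; the black bar is their median and the dashed bar the median of all genes tested. The medians are 0.25 for FF minus Dex, 0.48 for VSG22 minus Dex, 0.31 for VSGC12 minus Dex, 0.24 for VSG22 minus FF, 0.05 for VSGC12 minus FF and -0.21 for VSGC12 minus VSG22.

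Of the 50 genes, 12 had several probes, and the probe with the highest mean signal stood for the gene. The 3 Birc5 probes gave changes of 3.20 ± 0.14, 3.51 ± 0.16 and 3.35 ± 0.10. Both Kif2c probes were well above background on every glucocorticoid array and on no EtoH array. Cdca8 (1.38 and 1.59), Cenpk (2.04 and 2.33), Cenpq (1.56 and 1.15), Racgap1 (1.05 and 0.73), Pttg1 (1.28 and 0.84) and Incenp (0.61 and 0.40) rose on every probe. Among probes well above background on both arrays of at least 1 group, those of Tpx2 disagreed most in size. The other Tpx2 probe, near base 3592 of the transcript rather than base 2770, gave 1.79 ± 0.49 (adjusted p 0.026), with 1 EtoH array well above background. Mad2l1 rose by 1.42 on the probe used. Another probe was well above background on no EtoH array (adjusted p 0.0027), and the third gave 1.18 ± 0.57 (adjusted p 0.15) with no value on 1 Dex array. The other probes of Nuf2 and Sapcd2 were well above background on no array.

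**Figure D4:**
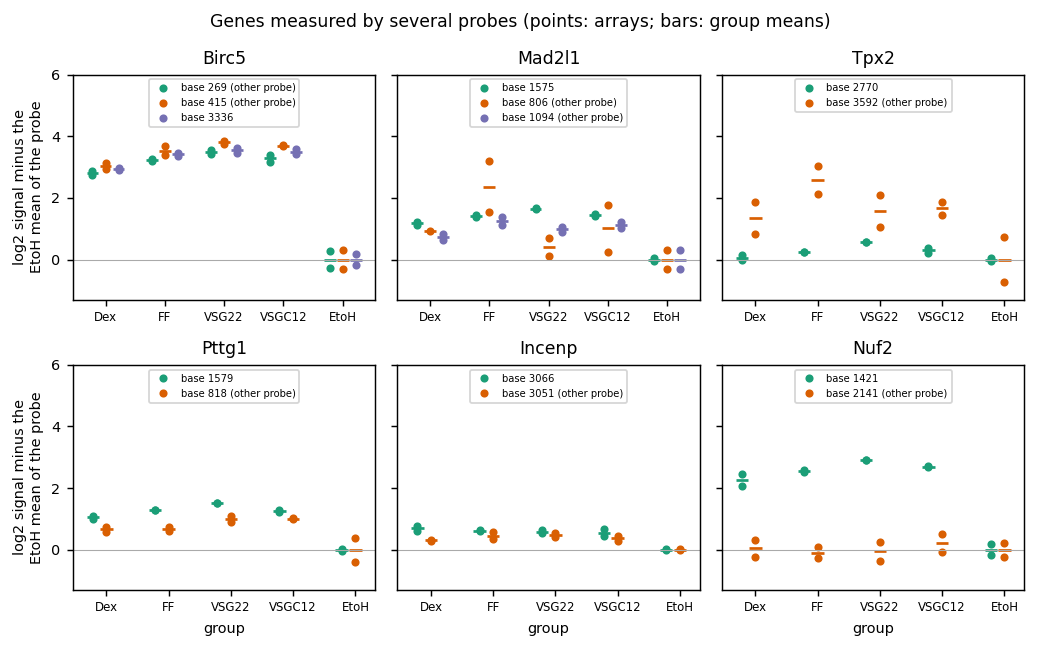
Log2 signal of every probe of 6 genes with several probes, relative to that probe's EtoH mean, with a point for each array and a bar for each group mean; the legends give each probe's base in the transcript. The Birc5 probes rise together (3.20, 3.51 and 3.35), the Tpx2 probes by 0.30 and 1.79, and the other Nuf2 probe stays near 0 at 0.03.

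Further mitosis genes were mixed. Of 124 further genes listed by function, 119 were measured, and 60 were higher, 10 lower and 49 not called, with a median of 0.29, where 21.6% of all genes were called higher and 22.5% lower. The counts of the lists below stand beside the same shares. Kinetochore and centromere genes outside the 52 had 22 of 30 higher, 1 lower and a median of 0.93, led by Ska1, which tracks microtubule ends (3.01 ± 0.08), and Oip5, a CENP-A loading factor (2.48 ± 0.16; 1.27 with normexp). Zwint, a kinetochore adaptor, fell by 0.47 (adjusted p 0.0044), and Cenpb, which binds satellite DNA, rose by 0.25. Further kinesins and spindle genes had 17 of 26 measured higher, 1 lower and a median of 1.03, with Pimreg at 3.24 ± 0.07 (2.25 with normexp), Troap at least 1.9-fold higher (1.58-fold with normexp) and the microtubule plus-end protein Clasp1 at -0.22 (adjusted p 0.049). Of 4 other condensin subunits, 3 rose, with a median of 1.36.

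The anaphase-promoting complex and its regulators had 4 of 15 measured higher, 1 lower and a median of 0.17, a share of higher calls near that of all genes, 21.6%. Fbxo5 (EMI1, an inhibitor of the complex) and Ube2c (its E2 enzyme) rose by 2.59 ± 0.09 and 2.06 ± 0.08, and the subunit Cdc26 fell by 0.69. Cohesin and its regulators had 4 of 14 higher, 3 lower and a median of 0, also near that share, with the S-phase acetyltransferase Esco2 at least 3.57-fold higher (2.21-fold with normexp) and sororin, Cdca5, higher by 1.61. The loaders Mau2 and Nipbl fell by 0.5 and 0.36. Further cytokinesis and abscission genes had 4 of 18 higher, 4 lower and a median of -0.07, again near it, with Iqgap3 at 3.1 ± 0.11 (1.65 with normexp) and Depdc1a at least 2.84-fold higher (1.76-fold with normexp), while the ESCRT genes Ist1 and Vps4b fell by 0.45 and 0.40. Centriole duplication genes had 6 of 12 higher, 0 lower and a median of 0.25, a share of higher calls above that of all genes, with the largest rise in Stil, a cartwheel protein, at 0.77 ± 0.11. With signals scaled to each array's median, none of the 119 was called lower and 53 were called higher.

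Genes of other cell cycle stages rose beside them. DNA replication genes had 32 of 37 higher, 1 lower and a median of 1.37, from thymidine kinase Tk1 (3.62 ± 0.08) and the ribonucleotide reductase subunit Rrm2 (3.27) to the licensing factor Cdt1, which fell by 0.51. Cell-cycle regulators had 21 of 29 measured higher, 2 lower and a median of 0.79. Cyclin A2, Ccna2, rose by 4.61 ± 0.15 (3.04 with normexp). The fitted change of E2f7, a repressor of the E2F family, was 3.85 ± 0.15 (1.69 with normexp). The E2f7 probe read -4.64 and -4.31 in EtoH, below the EtoH readings of Cenpm (-3.98 and -3.65), whose change is given as a bound. The size of the E2f7 rise is therefore uncertain. The lower pair were the inhibitors Cdkn1b, at -0.79 (adjusted p 0.00025), and Cdkn1a, at -0.52. With signals scaled to each array's median, 0 DNA replication genes and 1 cell-cycle regulator were called lower.

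**Figure D5:**
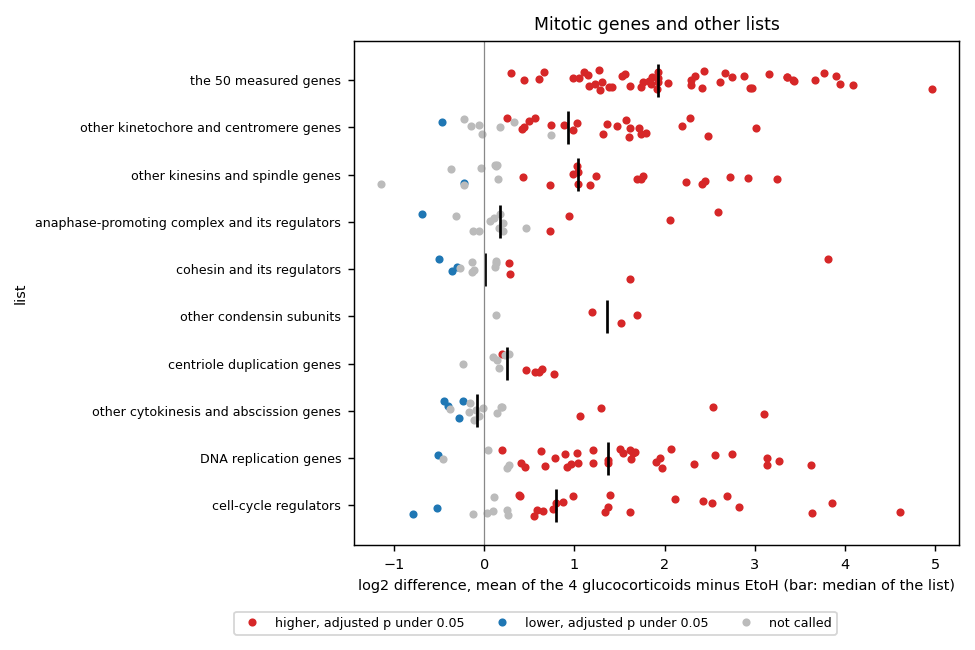
Log2 difference of the mean of the 4 glucocorticoids minus EtoH for every measured gene of each list (points), coloured by call, with a bar at the list's median. The 50 genes have a median of 1.92, other kinetochore genes 0.93, cohesin 0 and DNA replication genes 1.37.

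Macrophage identity was checked with 10 markers, all measured and 9 well above background on every array, and their mean level was 4.40 to 4.55 on the glucocorticoid arrays and 3.78 on both EtoH arrays, with 4 called higher and 2 lower. None of the 5 B cell or 5 epithelial markers was measured, and 3 of 6 T cell markers were (Cd3e, Cd4 and Lck), at 2.95 to 3.68 on the glucocorticoid arrays and 2.82 to 2.89 on the EtoH arrays, with 1 called higher and none lower. Of the 6 fibroblast markers 2 were measured, at -2.96 to -1.94 on the glucocorticoid arrays and -2.67 to -2.46 on the EtoH arrays, and none was called. Of 6 neutrophil and mast cell markers 3 were measured, with 2 higher and 1 lower. Their part in the results was not tested. No spot was saturated, and 40.1% to 44.4% of spots were well above background on each array.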

How the data were processed

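The authors deposited Agilent Feature Extraction files (version 10.7.3.1, per the file headers) holding 62976 spots per array, with processed signal intensity values and quality flags (another kind of value) per spot. The submitters' processing notes name limma without a step. Probe positions are mm9, per the file headers, and no mm9 annotation was used here. Processed intensities were divided by each array's 75th percentile (375.1 to 536.8) and set on a log2 scale, control spots and outlier flags were left out, and spots of a probe were averaged. A gene was represented by its probe with the highest mean signal among those well above background on both arrays of a group. Probes were named by accession, then symbol or synonym: 66 probes for 52 genes, with Sapcd2 found by synonym and 1 probe left out as another gene of the same old name.

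All 10 arrays entered 1 limma fit (limma 3.58.1, R 4.3.3; 5 residual degrees of freedom, 1.81 prior) with empirical Bayes and Benjamini-Hochberg adjustment over all genes tested. Changes of genes with no probe well above background on either EtoH array are given as nominal bounds, set by the floor described above. Only 2 arrays a group limit the precision. Replicate number equals slide: deviations of same-numbered arrays correlated between -0.04 and 0.32, so they were not treated as pairs, and values within each slide are given. In simulated data for the mean of the 4 glucocorticoids against EtoH over 17890 genes, 52%, 74%, 84% and 92% of genes changed by 0.5, 1, 2 and 4 (log2) were recovered, with 8 false calls. Only 50 genes were changed per size there, and the spreads were shuffled over the genes. In the data 7962 of 18031 genes were called, so these rates need not hold for them.

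The genes and lists were chosen with earlier results of these data known. Named genes were the 2 largest and the smallest change of each role group, all uncalled members, called members of each pair, and up to 2 highest and 2 lowest called genes of each other list. Alternatives changed the background correction (normexp with offset 50), scaling, filter, probe choice, flagged and patched spots, the slide block and each array in turn.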

Additional observations from a re-analysis of the deposited data

How the results depend on the processing

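Over 21 alternatives, no called change reversed. The median for VSGC12 against FF, where no gene was called, was 0.05 here and ran from -0.02 to 0.13. For the mean of the 4 glucocorticoids every measured gene stayed called higher in 16. The exceptions were array-median scaling (48 of 50), the percentile over detected probes and leaving out either EtoH array (49 of 50), and no filter on dim probes (50 of 52). Requiring signal on all arrays left 37 genes, all called. Tpx2 lost its call in 5 settings (0.42, adjusted p 0.16, with array-median scaling; 0.21, 0.059, with the detected percentile; 0.30, 0.094, without a filter; 0.26, 0.11, and 0.33, 0.06, without EtoH replicate 1 and 2; range over alternatives 0.21 to 1.04), and Smc4 in 1 (0.57, adjusted p 0.058, with array-median scaling). The median change ranged from 1.42 to 2.04; array-median scaling moved the median of all genes to 0.118 and the share of calls that were higher to 70.4%, against 49% here and 38.6% with the detected percentile. All genes called numbered 3761 under that scaling, 4925 without a filter, and 4754 and 4674 without EtoH replicate 1 and 2, against 7962. VSG22 against Dex, with 0 genes called, gave 7 with normexp, 5 with quantile normalization, 2 with the detected percentile, 1 with flagged spots kept, 3 with the replicate block, whose pairing moved no other pair, and 9 without Dex replicate 1. With normexp, FF against Dex had 1, VSGC12 against Dex 2 and the F-test 1, and without Dex replicate 1 VSGC12 against Dex and the F-test had 1 each. For these pairs, the number of all genes called in an alternative setting is given only for VSG22 against Dex without a single Dex array. The causes of these differences in calls were not tested. Leaving out each array in turn gave 49 to 50 genes for the mean, 46 to 49 for Dex, 47 to 49 for FF, 49 to 50 for VSG22, 48 to 50 for VSGC12, 55 to 75 other mitosis genes, 0 to 9 for VSG22 against Dex, 0 to 1 for VSGC12 against Dex, 0 to 1 for the F-test and 0 to 0 for FF against Dex, VSG22 against FF, VSGC12 against FF and VSGC12 against VSG22. The VSG22 against Dex median stayed between 0.41 and 0.58. Leaving out both Dex arrays gives no Dex comparison. Signal over background limits the 8 genes given as bounds and the 2 not measured.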
